A study of Mus musculus with 6 samples.

Results

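RNA levels of 10 genes of activin, follistatin and growth differentiation factor (GDF) signalling were followed in MPC5 cells. They were taken by symbol from the deposited count table, which holds 21719 genes, and 10 of 10 were found. MPC5 is a conditionally immortalised mouse podocyte line, grown here in high glucose throughout, so both groups share that treatment. RNA was sequenced from 3 libraries of wild-type cells (Setdb2WT) and 3 of Setdb2 knockout cells (Setdb2KO). Setdb2 belongs to the SET-domain family of histone H3 lysine 9 methyltransferases. How the knockout was made, whether it is 1 clone and whether the 3 libraries of a group are separate cultures were not stated in the labels, so p-values measure the spread between these libraries, which may be technical.

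Activins are dimers of inhibin beta chains, encoded by Inhba (activin A) and Inhbb (activin B). They bind the type II receptors Acvr2a and Acvr2b, which recruit and phosphorylate the type I receptor Acvr1b, and the signal passes through Smad2 and Smad3 to the nucleus. Gdf11 uses the same receptors. Gdf15 is a distant relative, a secreted stress cytokine whose known receptor, Gfral, works with Ret. Follistatin (Fst) and Fstl3 wrap around activins and related GDFs and keep them from their receptors, whereas Fstl1 shares the follistatin domain but is a matricellular glycoprotein with other partners. Activin signalling is studied in kidney for its part in fibrosis.

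Libraries held 36461449 to 37129174 reads. The knocked-out gene itself had 9 to 12 reads in the libraries labelled Setdb2WT against 15 to 25 in those labelled Setdb2KO (adjusted p = 0.088), so it does not check the labels, and groups are called by their labels. Of the podocyte markers, Podxl, Synpo, Kirrel, Cd2ap and Actn4 had reads in every library, but Wt1 summed to 3 reads in the group labelled Setdb2WT and to 1 in the group labelled Setdb2KO. Nphs1 and Tcf21 were not analysed here. The 11 podocyte markers in the table summed to 1950 to 1954 CPM (counts scaled to library size) in the libraries labelled Setdb2WT against 1606 to 1680 in those labelled Setdb2KO, and of 9 tested 3 were higher and 6 lower. Of 5 tubular markers listed, only 3 had counts. These 3, Aqp1, Cdh16 and Lrp2, summed to 1084 to 1099 CPM against 424 to 447, all 3 lower. The 5 mesangial and fibroblast markers summed to 58.3 to 63.8 CPM against 19.9 to 23.5, with 4 of 4 tested lower. Endothelial markers summed to 3.43 to 4.12 CPM against 1.59 to 2.79. Immune markers, of which 3 of 5 listed had counts, summed to 4.28 to 5.32 CPM against 4.77 to 6.30. Most markers of these types had few reads, and their counts differed in both directions. Over 3 libraries each, Pecam1 had 8 against 39 reads, Tek 1 against 7, Cdh5 2 against 1, Ptprc 14 against 0 and Lyz2 5 against 11. Of the 2 tested, Kdr was lower and Cd68 higher. By the same test, described below, 41.5% of all 13509 genes tested were higher and 42.3% lower. The part of these marker differences in the results below was not tested.

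Of the 10 genes, 8 passed edgeR's quasi-likelihood test at an adjusted p of 0.05, 4 higher and 4 lower in the libraries labelled Setdb2KO. In this comparison 83.8% of all 13509 genes tested did so, 41.5% higher and 42.3% lower, so this share is close to that of any genes. Of the 10, 5 changed at least 2-fold (Inhba and Acvr1b upward, Fstl1, Gdf11 and Gdf15 downward), beside 32.6% of all genes. Values of the 2 groups did not overlap in 7 of the 10, beside 84.6% of all genes. The median log2 fold change of the 10 was -0.0094, and that of all genes was 0.0045. The median absolute log2 fold change was 0.82 for the 10 and 0.66 for all genes. In bulk RNA, fewer cells that express a gene and less RNA per cell cannot be told apart.

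The promoter windows of 4 of the 5 genes with at least 2-fold changes are shown because these genes moved furthest in opposite directions and differ in base composition. They come from RefSeq's GRCm38.p6 table, an older build than the GRCm39 used for the counts. Of the 10 genes 9 matched by symbol, all but Fst. Sequences run 5′ to 3′ on the gene's strand and end at the annotated start, or 5 bases before it for Acvr1b, where an Ensembl exon begins. Most of the Fstl1 window lies in such an exon and is not printed. Capitals mark matches, on either strand, to any of 8 motifs: CAGAC (Smad element), GTCTAGAC (its palindrome), TGACGTCA (CRE), TGACTCA (AP-1), TGATGCAA (CARE), CACGTG (E-box), the CLEAR element, which contains the E-box, and GGGCGG (GC box).
Inhba (chr13:16011601-16011850, plus strand): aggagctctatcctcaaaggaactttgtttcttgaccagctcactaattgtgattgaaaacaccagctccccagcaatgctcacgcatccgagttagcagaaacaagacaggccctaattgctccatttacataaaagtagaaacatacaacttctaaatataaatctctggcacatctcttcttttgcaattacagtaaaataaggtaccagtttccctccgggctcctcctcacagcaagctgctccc
Acvr1b (chr15:101173822-101174066, plus strand): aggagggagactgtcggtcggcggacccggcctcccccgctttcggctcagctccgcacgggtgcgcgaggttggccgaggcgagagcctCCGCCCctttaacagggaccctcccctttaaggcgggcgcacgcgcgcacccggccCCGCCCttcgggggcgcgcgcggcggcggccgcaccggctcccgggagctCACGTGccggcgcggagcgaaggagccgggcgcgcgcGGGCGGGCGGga
Gdf11 (chr10:128891719-128891968, minus strand): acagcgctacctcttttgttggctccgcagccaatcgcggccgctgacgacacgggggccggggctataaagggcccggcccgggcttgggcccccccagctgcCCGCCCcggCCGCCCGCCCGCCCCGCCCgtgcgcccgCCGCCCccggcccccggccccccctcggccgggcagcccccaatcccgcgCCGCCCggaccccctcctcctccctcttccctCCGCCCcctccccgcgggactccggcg
Gdf15 (chr8:70632457-70632706, minus strand): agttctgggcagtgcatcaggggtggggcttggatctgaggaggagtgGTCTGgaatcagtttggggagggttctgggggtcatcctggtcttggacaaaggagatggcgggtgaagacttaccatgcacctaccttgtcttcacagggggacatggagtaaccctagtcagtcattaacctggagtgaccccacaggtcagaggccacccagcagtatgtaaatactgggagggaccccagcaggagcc

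The Inhba window held no match to any of the 8 motifs, had 43.2% G and C, and held 3 CpG pairs in 250 bases. Over all 32851 windows in the table the medians were 52.4% and 6. Of all windows, 1.55% hold the CRE, 4.46% the AP-1 motif, 0.791% the CARE, 0.167% the Smad palindrome and 0.24% the CLEAR element, none of which was found in the windows of the 9 genes. Acvr1b, the other large rise, had 78.8% G and C with 42 CpG pairs, an E-box (found in 6.02% of all windows) and 4 GC boxes (at least 1 in 32.7%). The Gdf11 window, of a gene that fell, had 81.2% G and C with 33 CpG pairs and 8 GC boxes, some overlapping. The upstream Gdf15 start had 56.4% G and C, 1 CpG pair and 1 CAGAC match, a motif that 42.2% of all windows hold. A second annotated Gdf15 start had 1 CAGAC match and 1 E-box. Both lie within annotated exon, which covers 196 of the 250 bases of that window. Fstl1 had 68.0% G and C and 2 GC boxes. Both directions of change thus occurred among GC-rich windows. These are matches of letters, not measured binding.

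Inhba (Entrez 16323), the activin A chain, rose most of the 10 genes. It stood at 19.1, 17.8 and 18.5 CPM in the libraries labelled Setdb2WT against 74.5, 67.5 and 81.2 CPM in those labelled Setdb2KO. All 3 libraries labelled Setdb2KO lay above all 3 of the other group. The change was 4.02-fold (95% interval 3.64 to 4.44; log2 fold change 2.01, SE 0.067; adjusted p = 1.9e-12, edgeR quasi-likelihood test). It was larger in size than that of 88.6% of the genes tested.

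Inhbb (Entrez 16324), the activin B chain, rose less and from a lower level. Its values were 3.40, 4.11 and 4.08 CPM against 6.02, 6.28 and 5.34 CPM, without overlap. The rise was 1.52-fold (95% interval 1.26 to 1.84; adjusted p = 5.3e-04 by edgeR), and 46.9% of the genes tested changed by less. Against a limit of 1.5-fold rather than no change, glmTreat did not call it (adjusted p = 0.39), while it called the 5 of the 10 genes that changed at least 2-fold, and 45.4% of all genes.

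Gdf11 and Gdf15 moved the other way. Gdf11 (Entrez 14561), which shares the activin receptors, stood at 20.7, 23.2 and 21.8 CPM in the libraries labelled Setdb2WT against 7.19, 7.93 and 6.96 CPM in those labelled Setdb2KO. The groups were far apart relative to their spread, and the fall was 2.98-fold (95% interval 2.64 to 3.36; log2 fold change -1.57, SE 0.081; adjusted p = 2.2e-10 by edgeR). Gdf15 (Entrez 23886) had 540, 565 and 567 CPM against 267, 285 and 265 CPM, again without overlap. Its fall, with a 95% interval of 1.94-fold to 2.15-fold, rested on 58521 and 31561 reads over the 2 groups and had the smallest standard error of the 10 (log2 SE 0.035; adjusted p = 2.3e-12 by edgeR).

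**Figure D1:**
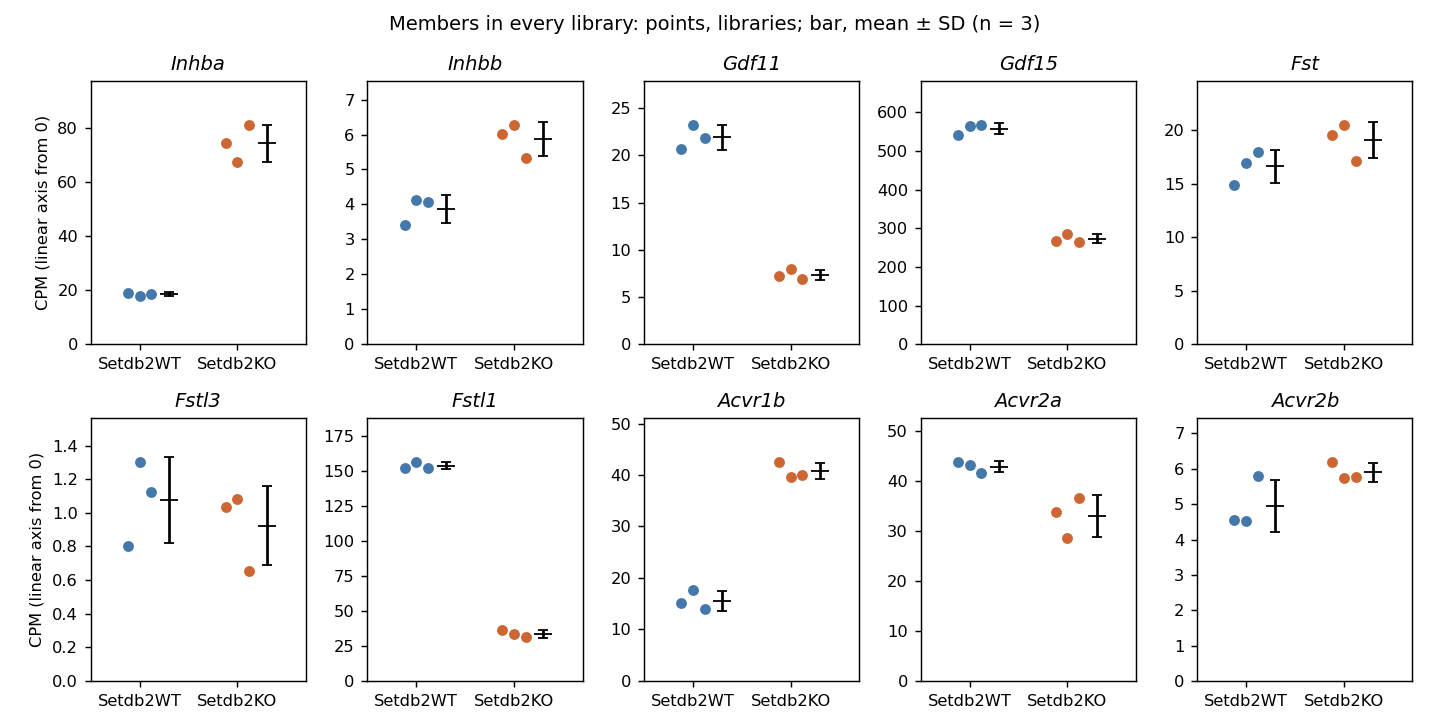
CPM of each of the 10 genes in every library (linear axes from 0), with blue points for the libraries labelled Setdb2WT, orange points for those labelled Setdb2KO and a bar for the mean and SD (n = 3). The groups separate in 7 panels and overlap for Fst, Fstl3 and Acvr2b.

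The secreted binding proteins did not follow Inhba. Fst (Entrez 14313), the main activin antagonist, had 14.9, 16.9 and 18.0 CPM in the libraries labelled Setdb2WT against 19.6, 20.5 and 17.2 CPM in those labelled Setdb2KO. The third library labelled Setdb2KO lay below the third labelled Setdb2WT, so the groups overlapped. Fst was called higher by 1.15-fold (95% interval 1.01 to 1.31; adjusted p = 0.043 by edgeR). This call was lost when Setdb2WT replicate 1 or 2 or Setdb2KO replicate 1 or 2 was left out (adjusted p = 0.24, 0.10, 0.11 and 0.11), and with no filter on low counts (adjusted p = 0.066). Fst shares 115 of its 2833 exon bases with Gm47040 on the opposite strand, a gene for which no counts were given.

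Fstl3 (Entrez 83554), the second activin-binding member, was scarce, with summed reads of 113 in the group labelled Setdb2WT and 107 in the group labelled Setdb2KO. Its values were 0.80, 1.30 and 1.12 CPM against 1.03, 1.08 and 0.65 CPM, with overlapping groups. The log2 fold change was -0.22 with a 95% interval of -0.84 to 0.41 (adjusted p = 0.49 by edgeR), so a difference of up to 1.80-fold lower or 1.33-fold higher is within its error. Of its 1955 exon bases, 1157 overlap Prss57 on the opposite strand; Prss57 had 0, 0 and 0 reads against 3, 2 and 0.

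Fstl1 (Entrez 14314) changed most of the 10. It fell from 152, 157 and 152 CPM to 36.5, 33.3 and 31.1 CPM, with a wide gap between the groups. The fall was 4.58-fold (95% interval 4.25 to 4.93; log2 fold change -2.19, SE 0.050; adjusted p = 3.8e-14 by edgeR), and 90.2% of the genes tested changed by less. Among 11298 other protein-coding genes with a mean of at least 1 CPM, those whose log2 CPM about their own mean lay closest to Fstl1 over the 6 libraries were Nudt14, Acss2 and Traf5, at root mean square distances of 0.034, 0.047 and 0.048. With only 2 groups, this distance mainly reflects a like group difference (log2 fold changes -2.23, -2.26 and -2.22). Shared regulation was not tested.

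**Figure D2:**
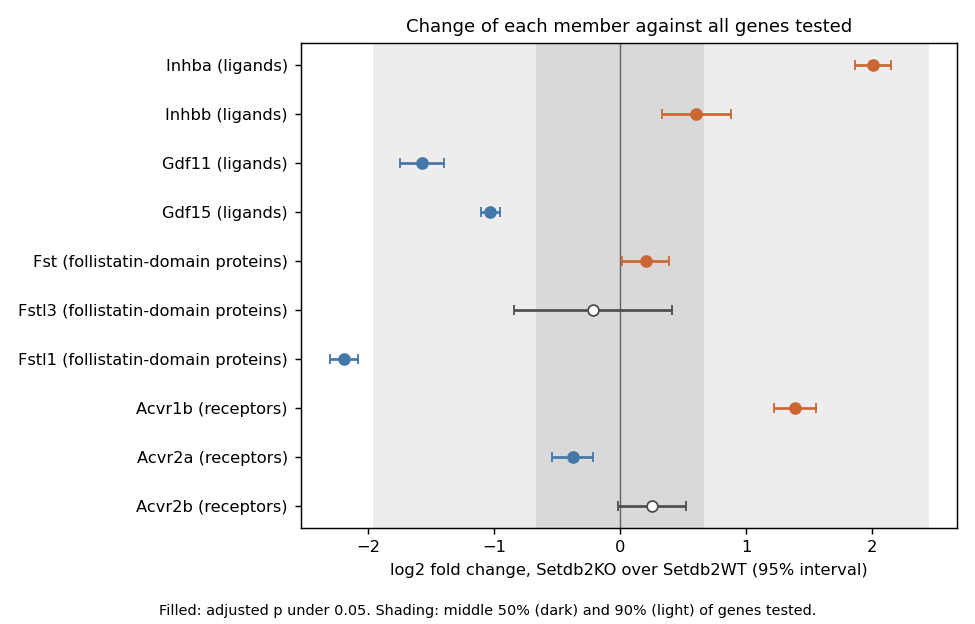
Log2 fold change of each gene, libraries labelled Setdb2KO over Setdb2WT, with its 95% interval from edgeR's fit; filled points passed the test, and shading gives the middle 50% and 90% of all genes tested. Fstl1 lies below the lighter band, and Fst, Fstl3, Acvr2a, Acvr2b and Inhbb lie within the darker one.

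Ratios of reads between 2 genes within a library need no scaling between libraries. The ratio of Fst to Inhba reads was 0.780, 0.949 and 0.971 in the libraries labelled Setdb2WT against 0.263, 0.304 and 0.211 in those labelled Setdb2KO. Per kilobase of exon, Fst lay above Inhba in every library of the first group (at least 5.27 against at most 3.00 CPM per kilobase) and below it in every library of the second (at most 7.24 against at least 10.6). The mean log2 ratio went from -0.16 ± 0.17 to -1.96 ± 0.26 (SD, n = 3 each), a 3.49-fold lower ratio. The ratio of Fstl3 to Inhba reads was 4.69-fold lower, with -4.13 ± 0.41 against -6.36 ± 0.53 on the log2 scale. Neither pair of groups overlapped. In each case the exact two-sided permutation p was 0.10, the smallest that 3 libraries against 3 can give, and 3 such ratios were computed. Both lower ratios to Inhba largely restate its own rise (log2 fold change 2.01). The estimates for Fst (0.20) and Fstl3 (-0.22, not past the test) were smaller.

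**Figure D3:**
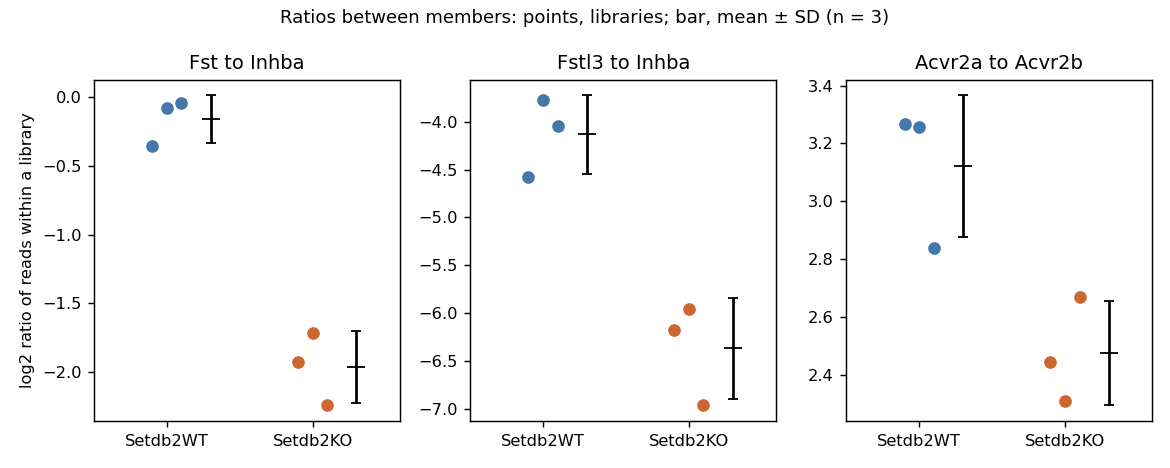
Log2 ratio of the reads of 2 genes within each library, with points for libraries and bars for mean and SD (n = 3; axes do not start at 0). All 3 ratios are lower in every library labelled Setdb2KO than in any labelled Setdb2WT.

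Among the receptors, the type I receptor Acvr1b (Entrez 11479) rose and the type II receptors shifted little. Acvr1b had 15.2, 17.7 and 13.9 CPM in the libraries labelled Setdb2WT against 42.6, 39.7 and 40.1 CPM in those labelled Setdb2KO. The groups did not overlap, and the rise was 2.61-fold (95% interval 2.33 to 2.93; log2 fold change 1.39, SE 0.076; adjusted p = 4.6e-10 by edgeR). Acvr1c, the related type I receptor for activin B and Nodal, had summed reads of 3 and 1.

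Acvr2a (Entrez 11480) was the more abundant type II receptor. It fell 1.30-fold (95% interval 1.16 to 1.45; adjusted p = 2.9e-04 by edgeR), from 43.8, 43.1 and 41.6 CPM to 33.8, 28.5 and 36.6 CPM. The groups did not overlap, but the libraries labelled Setdb2KO varied more among themselves, with a coefficient of variation of 12.6% against 2.70%. It shares 446 of its 5686 exon bases with Orc4 on the opposite strand, and Orc4 changed in the other direction (log2 fold change 0.42, adjusted p = 1.2e-04). Whether the counting used strand is not given here, so reads in that overlap cannot be assigned.

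Acvr2b (Entrez 11481) had 4.55, 4.51 and 5.81 CPM against 6.20, 5.73 and 5.76 CPM. The third library labelled Setdb2WT lay within the other group. Its log2 fold change was 0.25 (95% interval -0.020 to 0.52; adjusted p = 0.078 by edgeR) and did not pass. It passed under total-count scaling, at a log2 fold change of 0.41 (adjusted p = 0.0083), and without Setdb2WT replicate 3 (adjusted p = 0.018). The ratio of Acvr2a to Acvr2b reads was 9.64, 9.57 and 7.16 in the libraries labelled Setdb2WT against 5.45, 4.96 and 6.36 in those labelled Setdb2KO, 1.57-fold lower (exact two-sided permutation p = 0.10). Per kilobase of exon, Acvr2a exceeded Acvr2b in every library.

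Levels were compared between genes as CPM per kilobase of GENCODE exon, an approximation because isoform use is unknown. In the libraries labelled Setdb2WT, Gdf15 stood at 301 ± 8.1 and Fstl1 at 40.6 ± 0.68 CPM per kilobase (SD, n = 3 each). Acvr2a (7.54 ± 0.20), Fst (5.87 ± 0.55), Gdf11 (5.39 ± 0.32), Acvr1b (3.53 ± 0.44), Inhba (2.90 ± 0.10), Acvr2b (1.39 ± 0.21), Inhbb (0.909 ± 0.094) and Fstl3 (0.550 ± 0.13) followed. Only Fst and Gdf11 overlapped between libraries among neighbours in this order.

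In the libraries labelled Setdb2KO, Gdf15 was still first at 147 ± 6.0 CPM per kilobase, but Inhba had moved from position 7 to 2, at 11.6 ± 1.1. Acvr1b at 9.23 ± 0.36 and Fstl1 at 8.87 ± 0.71 came next and overlapped. Fst at 6.74 ± 0.61 and Acvr2a at 5.80 ± 0.73 overlapped as well, as did Gdf11 at 1.81 ± 0.12 and Acvr2b at 1.65 ± 0.074. Inhbb (1.38 ± 0.11) and Fstl3 (0.472 ± 0.12) kept the lowest positions. Acvr1b was below Acvr2a per length in every library of the first group and above it in every library of the second. With the longest transcript as the length, Acvr2b and Gdf11 exchanged places in the second group and no other position changed in either group.

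**Figure D4:**
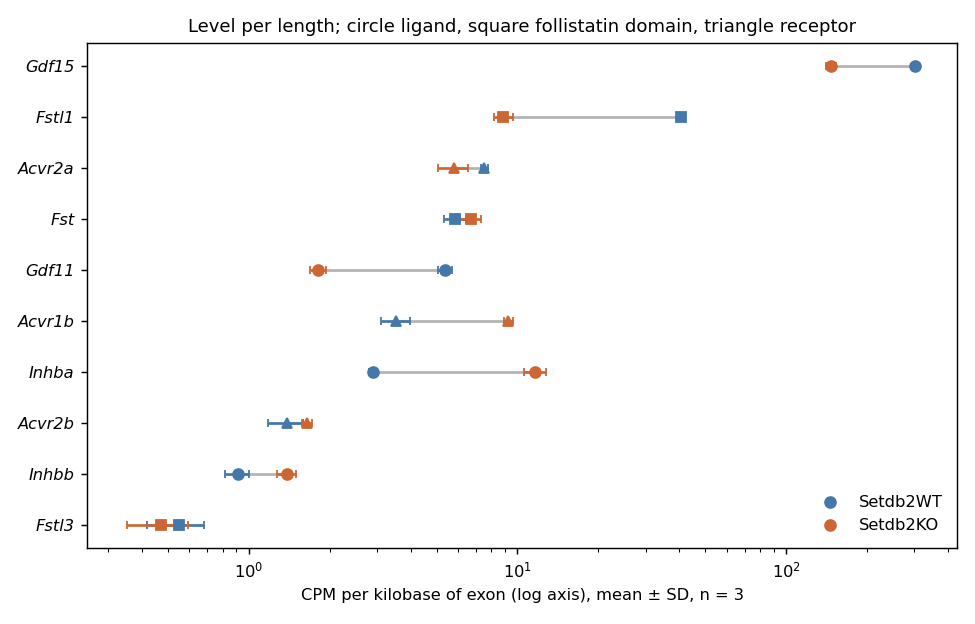
CPM per kilobase of exon (log axis), mean and SD of 3 libraries, in blue for Setdb2WT and orange for Setdb2KO, with genes ordered by the Setdb2WT level. Gdf15 lies highest in both groups, and Inhba passes Acvr1b, Gdf11, Fst, Acvr2a and Fstl1.

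Other genes of the pathway were read from fixed lists. Of 15 other ligands, 5 were in the table and 2 were tested. Inha, the alpha chain that pairs with a beta chain to form inhibin, rose 2.77-fold, reaching 4.54 ± 0.63 CPM against 1.64 ± 0.41 CPM (SD, n = 3 each; adjusted p = 6.6e-06 by edgeR). Gdf9, an oocyte factor named after its values were seen, rose from 8 to 94 reads over 3 libraries. Gdf9 reached the filter on low counts only in the libraries labelled Setdb2KO, so its being tested depended on its higher counts there. The inhibin alpha chain and both activin beta chains were thus all higher in the libraries labelled Setdb2KO. Of all genes tested, 83.8% were called and 41.5% were higher.

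Of 7 other receptors and co-receptors tested, 1 was higher, 2 were lower and 4 missed the threshold (median log2 fold change -0.025). Among all genes tested, 83.8% were called, 41.5% higher and 42.3% lower. Bmpr2, the type II receptor of BMPs, rose 2.12-fold (adjusted p = 1.1e-09 by edgeR). Tgfbr3, or betaglycan, the co-receptor through which inhibin blocks type II receptors, was 1.55-fold lower, at 49.5 ± 1.1 CPM against 76.5 ± 2.6 CPM (SD, n = 3 each; adjusted p = 3.7e-09), and Tgfbr2 fell too (log2 fold change -1.24). Gfral, the Gdf15 receptor, had 0 reads and 4 reads over the 2 groups.

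Of 10 tested binding proteins and activating proteases, 6 were higher, 3 lower and 1 missed the threshold (median 0.76). Wfikkn2 (3 against 57 reads), Tll2 (2 against 39) and Nog reached the filter on low counts only in the libraries labelled Setdb2KO. Pcsk5 (45 against 6 reads) reached it only in those labelled Setdb2WT. The split and the median of this list thus depend on genes that entered through 1 group. Wfikkn2, Tll2 and Pcsk5 were named after their values were seen. The share called among all genes was 83.8%, with 41.5% higher and 42.3% lower. Furin, a convertase that cleaves activin and GDF precursors, rose 1.47-fold from 132 ± 1.6 to 193 ± 7.0 CPM, and the related Pcsk7 rose 1.95-fold, reaching 75.0 ± 4.2 CPM against 38.5 ± 0.76 CPM (SD, n = 3 each). Nog, the BMP antagonist noggin, rose from 29 to 219 reads over 3 libraries. Wfikkn1, which binds Gdf11 and was named after its values were seen, rose 2.40-fold from 2.43 ± 0.38 to 5.84 ± 0.64 CPM, while its ligand fell. The adjusted p over these 4 genes ran from 1.5e-10 for Pcsk7 to 2.3e-06 for Wfikkn1.

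All 11 tested Smad transducers and partners passed, 7 higher and 4 lower, with a median of 0.24, beside 83.8% called among all genes. Both receptor-regulated Smads of the activin branch were lower. Smad3 went from 162 ± 3.1 to 61.9 ± 2.9 CPM, and Smad2, named after its values were seen, from 89.4 ± 1.6 to 58.2 ± 0.78 CPM (SD, n = 3 each; adjusted p = 1.1e-09 by edgeR). Tgif1, a corepressor of Smad2 and Smad3, rose 2.34-fold (log2 fold change 1.22, SE 0.038), and Smurf1, a ubiquitin ligase that acts on Smads, fell 2.62-fold. In the libraries labelled Setdb2KO, RNA of the activin A chain and of Acvr1b was thus higher while RNA of Smad2 and Smad3 was lower. The other higher genes of this list were Skil (log2 fold change 1.28), Smad7 (0.90), Pmepa1 (0.53), Smad4 (0.48), Zfyve9 (0.24) and Smurf2 (0.22). Ski (-0.30) was the remaining lower gene. These genes too were named after their values were seen.

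The 11 stress response genes tied to Gdf15 all passed, 7 higher and 4 lower, with a median of 0.26, again beside 83.8% of all genes. Trib3, a pseudokinase of the ATF4 pathway, rose 8.20-fold, reaching 134 ± 7.4 CPM against 16.4 ± 0.69 CPM (SD, n = 3 each; adjusted p = 2.7e-15 by edgeR). Ddit3 and Atf3, stress transcription factors of the same pathway, rose by 2.98 and 1.92 on the log2 scale. Gdf15, often induced with them, was lower in the same libraries. The 4 lower genes of the list were Xbp1 (log2 fold change -1.62), Trp53 (-0.27), Tfe3 (-0.21) and Tfeb (-0.17). These 4 were named after their values were seen. By the table's own pathway annotation, 76 other genes of TGF-beta signalling were tested. Of these, 27 rose, 38 fell and 11 did not pass (median -0.23), beside 83.8% called among all genes. This annotation was used after its values could be seen.

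**Figure D5:**
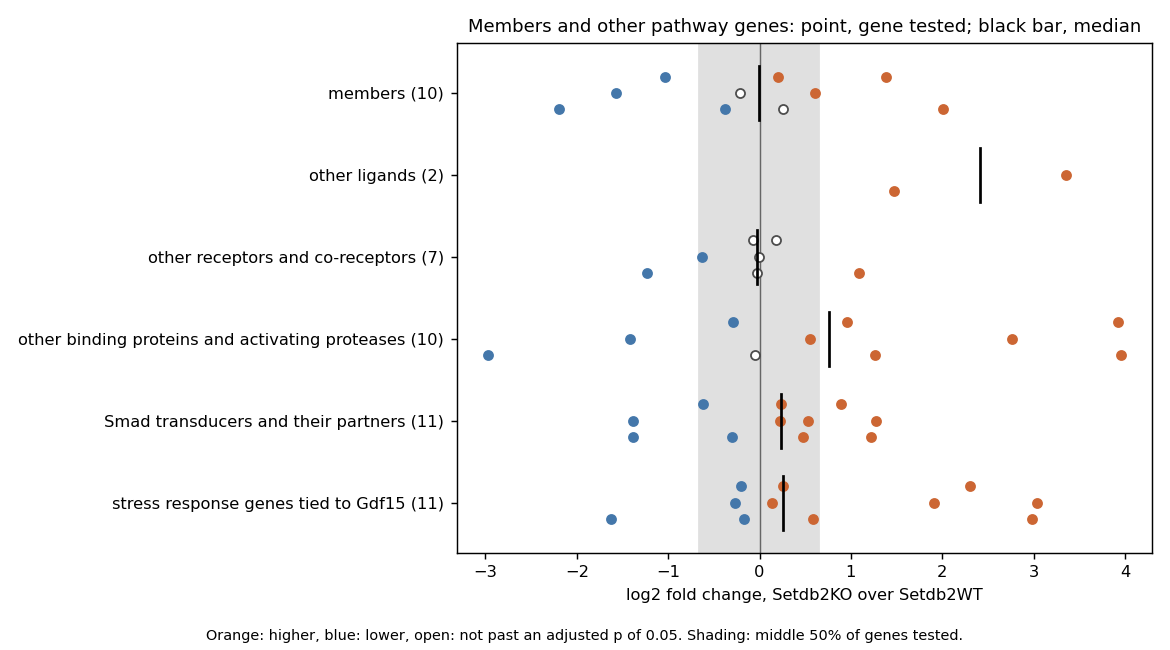
Log2 fold change of the 10 genes and of each tested gene of the 5 pathway lists, with orange for higher, blue for lower and open points for genes that did not pass; black bars give medians and the shading the middle 50% of all genes tested. Every list but the 2 other ligands holds genes on both sides of 0.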

How the data were processed

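Per the submitters' processing notes, fastp, HISAT and HTSeq were used with GRCm39; tool versions, the annotation and use of strand: not given in the sources used here. The authors deposited raw read counts per gene, 1 column per library and 0 columns unmatched to samples. Here the counts were tested with edgeR 4.0.16 (R 4.3.3): TMM scaling, filterByExpr at a minimum count of 10, quasi-likelihood F test on genotype, Benjamini-Hochberg adjustment over 13509 genes, threshold 0.05. CPM values use the TMM factors; intervals are 95% intervals of the fitted log2 fold change. Genes with few reads carry wide counting error.

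All 10 genes are named. From each pathway list came up to 3 genes with the smallest adjusted p and a mean of at least 1 CPM. The genes and lists were chosen with earlier results of these data known. Same-numbered libraries of the 2 groups did not deviate together (correlations -0.022 to -0.0017). Pairs within a group differed beyond sampling noise, so none was treated as a repeat. Chi-square per degree of freedom was 2.52 to 2.68 for Setdb2WT pairs and 4.38 to 15.8 for Setdb2KO pairs. The values of 8.87 and 15.8 came from the pairs with Setdb2KO replicate 2. Simulated counts with 200 changed genes (50 per fold, 13300 tested) were used to test the scripts: edgeR recovered 35 at 1.2-fold and 50 each at 1.5-fold, 2-fold and 4-fold, with 10 unchanged genes called. Alternatives were other scalings, DESeq2 1.42.0, limma-voom (limma 3.58.1), other filters, glmTreat, the replicate number as a block and each library left out. Exon lengths are from GENCODE M21 and promoters from RefSeq, both on GRCm38.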

Additional observations from a re-analysis of the deposited data

How the results depend on the processing

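All 10 genes kept their direction under the 15 alternatives, and Inhba, Gdf11, Gdf15, Fstl1 and Acvr1b kept their calls in each, with log2 fold changes of 1.94 to 2.16, -1.63 to -1.42, -1.07 to -0.88, -2.25 to -2.04 and 1.29 to 1.54. Total-count scaling moved the median log2 fold change of all genes from 0.0045 to 0.159, so values on that scale are read relative to it; calls there were 6550 higher and 4833 lower, against 5607 and 5711. Against a limit of 1.5-fold, glmTreat called 6137 genes in place of 11318, fewer by construction, and did not call Inhbb (0.60), Fst (0.20) or Acvr2a (-0.38), at adjusted p of 0.39, 1 and 1. The log2 fold change of Fst was 0.19 with no filter (adjusted p = 0.066) and 0.11 to 0.27 with 1 library left out (adjusted p 0.0078 to 0.24). That of Acvr2b was 0.41 under total-count scaling (adjusted p = 0.0083) and 0.17 to 0.37 with 1 library left out (adjusted p 0.018 to 0.27). The cause of these shifts was not tested. The replicate number as a block, which the numbers' correlations give no ground for, left every call of the 10 genes as it was, with 11190 genes called in all. Under the block Fst had a log2 fold change of 0.20 (adjusted p = 0.048). Fstl3 rested on 25 to 46 reads per library, and depth limits what can be said of it.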
